A study of Homo sapiens with 6 samples.

Results

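Of the many human genes named ZNF, 217 were expressed at a mean of at least 3 RPKM over the 6 libraries described here. RPKM divides a gene's reads by its exonic length and the library's total, so it can be compared between genes of different length. The 217 members were chosen by symbol (ZNF, a number and at most 1 further letter) and by that mean RPKM, from 563 such genes and 57773 genes in the deposited table. The libraries came from the established human embryonic kidney line HEK293, with 3 libraries labelled TRDMT1 gene knockdown and 3 labelled HEK293 control. TRDMT1 is a methyltransferase that adds a methyl group to cytosines in certain transfer RNAs, and the labels state the question as its function in HEK293 cells. The labels give no agent of the knockdown, no time point, no clone and no statement that replicates were separate cultures, so the p-values below reflect only how these libraries vary, and that variation may be technical.

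Most ZNF genes encode proteins with C2H2 fingers, short loops in which a pair of cysteines and a pair of histidines hold a zinc ion and in which a few side chains contact DNA bases. The largest subfamily carries a KRAB domain at the N-terminus, which binds the corepressor TRIM28 (KAP1). TRIM28 in turn brings the histone H3 lysine 9 methyltransferase SETDB1 and HP1 proteins, and this pathway silences transposable elements and holds some imprinted genes methylated. Many KRAB zinc finger genes lie in clusters on chromosome 19, which arose by repeated duplication.

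TRDMT1 itself went against the labels. It had 0.58, 0.58 and 0.58 RPKM in the libraries labelled knockdown, against 0.36, 0.36 and 0.28 RPKM in those labelled control. Its log2 fold change was 0.61 ± 0.21 (SE), with an adjusted p of 0.0705. The deposited columns of the libraries labelled knockdown have names that begin with 293C, and those of the libraries labelled control with 293TK. Whether the labels of the groups were exchanged cannot be told from these data, and an exchange would turn every direction given here. Groups are therefore called by their labels throughout, and every direction is that of the libraries labelled knockdown relative to those labelled control. The libraries labelled knockdown held 36455950, 36737468 and 40088993 counts, against 26465603, 24776040 and 26802182 counts in those labelled control. Of the 8 HEK293 markers listed, 7 were at 1 RPKM or more in every library, and PAX2 lay between 0.91 and 1.85 RPKM. The summed RPKM of the HEK293 markers was 619 to 639 under the knockdown label and 708 to 752 under the control label. Of 10 markers of other cell types, 7 stayed under 0.5 RPKM in every library and the highest was COL1A1 at 4.80 RPKM. Their summed RPKM was 4.80 to 5.33 under the knockdown label and 1.31 to 5.75 under the control label. The second library labelled control stood apart from the rest, with a normalization factor of 0.812 against 0.997 to 1.07 elsewhere and 2.51% of counts on processed pseudogenes against 0.895% to 1.16%. Counts and values without that library are given beside many, though not all, of the results that it moved.

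All 217 members passed the low-count filter, and the lowest count of any member in any library was 66. In edgeR's quasi-likelihood test, with Benjamini-Hochberg adjustment over 17805 genes, 28 members were higher under the knockdown label and 41 were lower at an adjusted p under 0.05, and 148 were not called. Over all genes tested the same rule called 24%, with 9.29% higher and 14.7% lower. Over the 9679 genes averaging at least 3 RPKM it called 10.3% higher and 15.7% lower, so the members' 12.9% higher and 18.9% lower lay near that background. The members' median log2 fold change was -0.02, beside -0.04 over all genes tested, and single members ran from -3.04 to 1.37. In total RNA from a bulk culture, fewer cells that use a gene and less RNA per cell cannot be told apart.

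The count of called members depended on which libraries entered. It was 30, 31 or 28 without the first, the second or the third library labelled knockdown, 40 without the first labelled control, 130 without the second and 84 without the third. Without the second library labelled control, 65 members were higher and 65 lower, while 27.7% of genes of at least 3 RPKM were higher and 30.1% lower. With upper-quartile scaling the split was 37 higher and 36 lower, and DESeq2 called 39 higher and 47 lower, beside 15% and 18.8% of genes of at least 3 RPKM. Across the main test and its alternatives, 18 settings in all, 18 members were called every time, 3 of them higher (ZNF646, ZNF213 and ZNF689) and 15 lower. None of the 69 calls turned into a call of the opposite direction under any of these settings.

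The choice of members by a mean over both groups let in genes that reached it through 1 group. Of the 217, 174 had a mean of at least 3 RPKM in each group, and 24 of the 41 lower calls and 21 of the 28 higher calls fell among them. The other 43 had 1 group under 3 RPKM, 19 of them the libraries labelled knockdown and 24 those labelled control. The members nearest the threshold were ZNF543, ZNF280B and ZNF570 at 3.00, 3.03 and 3.08 RPKM on the inside, and ZNF559, ZNF688 and ZNF532 at 2.96, 2.95 and 2.93 RPKM on the outside. On RPKM, 83 members had all libraries labelled knockdown above all labelled control and 49 had all below, while 85 overlapped. Among genes of at least 3 RPKM, 55.8% did not overlap, with 35.9% above and 19.9% below.

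The largest decrease among the members was in ZNF638, a nuclear RNA-binding protein that works with the HUSH complex to silence retroviral DNA. ZNF638 had 1.70, 1.84 and 1.83 RPKM in the libraries labelled knockdown, against 13.96, 11.65 and 13.39 RPKM in those labelled control. All libraries of 1 group lay far below all of the other, and the fitted level was 8.21-fold lower (log2 fold change -3.04 ± 0.12 SE, edgeR adjusted p = 0.000106). ZNF146, a short protein that consists almost wholly of fingers, had 17.37, 19.35 and 17.42 RPKM in the libraries labelled knockdown, against 84.69, 57.12 and 82.62 RPKM in those labelled control. Its log2 fold change was -2.21 ± 0.13 (SE) with an edgeR adjusted p of 0.000283. ZNF146 was thus both one of the most abundant members and one of those that fell furthest.

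ZNF711, an X-linked gene whose loss causes intellectual disability and whose protein recruits the histone demethylase PHF8 to promoters, had 23.98, 30.69 and 28.60 RPKM in the libraries labelled knockdown. In those labelled control it had 121.48, 73.59 and 138.56 RPKM. The groups did not overlap in spite of the wide spread within the control label, and the log2 fold change was -2.15 ± 0.20 (SE, edgeR adjusted p = 0.000931). ZNF644, a partner of the histone methyltransferases G9a and GLP, had 1.67, 1.95 and 1.93 RPKM in the libraries labelled knockdown, against 7.46, 4.38 and 7.50 RPKM in those labelled control (log2 fold change -1.95 ± 0.17 SE). ZNF260, described in rodents as a cardiac transcription factor, had 3.73, 4.31 and 4.64 RPKM in the libraries labelled knockdown, against 10.72, 8.68 and 10.94 RPKM in those labelled control (log2 fold change -1.43 ± 0.13 SE). The groups did not overlap in ZNF644 or ZNF260, and the second library labelled control was the lowest of its label in both.

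KRAB members made up 4 of the 10 strongest lower calls. These 4, like ZNF638 and ZNF644, averaged under 3 RPKM under the knockdown label, so they became members only through the libraries labelled control. ZNF480 had 1.25, 1.26 and 1.06 RPKM in the libraries labelled knockdown, against 5.45, 4.89 and 6.57 RPKM in those labelled control, a log2 fold change of -2.42 ± 0.15 (SE). ZNF420, a KRAB protein that binds p53 and restrains its pro-apoptotic targets, had 2.51, 2.81 and 2.62 RPKM in the libraries labelled knockdown, against 7.98, 7.91 and 8.04 RPKM in those labelled control (log2 fold change -1.78 ± 0.14 SE). ZNF567 averaged 2.19 ± 0.20 RPKM in the libraries labelled knockdown and 6.64 ± 0.68 RPKM in those labelled control (SD, n = 3 each), a log2 fold change of -1.77. ZNF33A averaged 2.48 ± 0.021 RPKM under the knockdown label and 6.38 ± 0.38 RPKM under the control label (SD, n = 3 each), a log2 fold change of -1.55. ZNF121, with 9 fingers and no KRAB pattern, completed the 10 at a log2 fold change of -1.39 ± 0.13 (SE). All 10 kept their call when any 1 library was left out, with adjusted p-values of at most 0.0139.

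The higher calls were smaller. Of the 28, 5 reached 2-fold, while 23 of the 41 lower calls did. The choice by a mean over both groups bears on these sizes. It let in 17 of the lower calls through the control label alone and 7 of the higher calls through the knockdown label alone. ZNF646, a protein with 31 finger patterns, as many as ZNF142 and more than any other member, had 7.32, 7.07 and 7.52 RPKM in the libraries labelled knockdown, against 2.65, 1.69 and 3.30 RPKM in those labelled control. The gap exceeded the spread of both groups (log2 fold change 1.37 ± 0.17 SE, edgeR adjusted p = 0.0031). ZNF213, which carries a SCAN as well as a KRAB domain, had 4.72, 4.85 and 5.35 RPKM in the libraries labelled knockdown, against 2.01, 1.01 and 2.34 RPKM in those labelled control (log2 fold change 1.34 ± 0.23 SE). ZNF689 had 12.16, 11.35 and 12.30 RPKM in the libraries labelled knockdown, against 6.45, 5.38 and 7.10 RPKM in those labelled control (log2 fold change 0.75 ± 0.11 SE). In each of these the second library labelled control was the lowest of the 6.

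**Figure D1:**
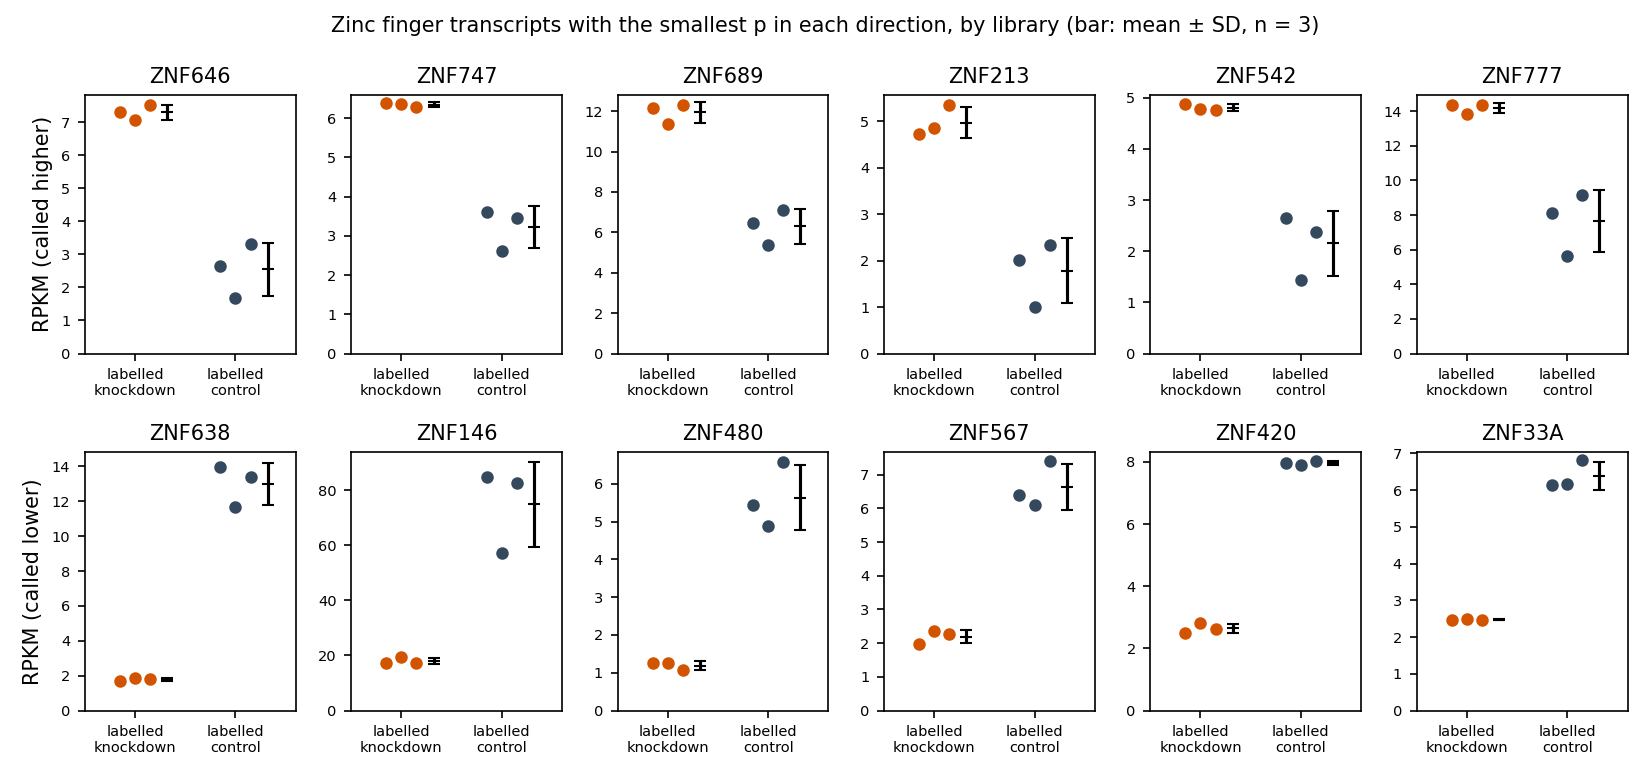
Level in RPKM (linear axes from 0) of the 6 zinc finger genes with the smallest p among the higher calls (upper row) and among the lower calls (lower row), 1 point per library and a bar at the mean ± SD of 3 libraries. In all 12 genes the libraries labelled knockdown (left) and labelled control (right) do not overlap, and the spread is wider in the control label for most of them.

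Among the other strong higher calls, ZNF777, a KRAB protein, averaged 14.2 ± 0.29 RPKM in the libraries labelled knockdown and 7.64 ± 1.8 RPKM in those labelled control (SD, n = 3 each), and ZNF367, a factor first described in erythroid cells, averaged 8.96 ± 1.2 RPKM under the knockdown label and 4.58 ± 0.92 RPKM under the control label. ZNF542, annotated without a coding sequence, averaged 4.80 ± 0.070 RPKM in the libraries labelled knockdown and 2.15 ± 0.63 RPKM in those labelled control. ZNF747, ZNF764, ZNF446 and ZNF79 followed with log2 fold changes of 0.81, 0.88, 0.67 and 0.69. Of the 10 strongest higher calls, 4 kept their call without any 1 library (ZNF646, ZNF747, ZNF689 and ZNF213), and ZNF777, ZNF764, ZNF446 and ZNF79 lost it in 3 of the 6 fits that left out a library.

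Of the 5 members of highest mean RPKM, ZNF711 and ZNF146 were lower, ZNF768 was higher, and ZNF428 and ZNF664 were not called. ZNF428 averaged 92.3 RPKM over all libraries, with 73.60, 76.63 and 75.86 RPKM in the libraries labelled knockdown and 86.91, 173.38 and 67.40 RPKM in those labelled control. The groups overlapped, with the second library labelled control highest, and ZNF428 was not called (edgeR adjusted p = 0.202). ZNF664 averaged 40.2 ± 2.8 RPKM in the libraries labelled knockdown and 39.6 ± 9.6 RPKM in those labelled control and was not called, though it was lower without the second library labelled control (log2 fold change -0.23, edgeR adjusted p = 0.0367). ZNF768, which binds MIR repeats, was higher, with 48.19, 50.98 and 51.42 RPKM in the libraries labelled knockdown against 33.80, 30.64 and 34.28 RPKM in those labelled control (log2 fold change 0.43 ± 0.11 SE, edgeR adjusted p = 0.0305). Of the 217 members, 41 had a mean of 10 RPKM or more and 7 a mean of 30 or more, and the median member had 5.31 RPKM. The members' RPKM summed to 1780, 1776 and 1793 in the libraries labelled knockdown, against 1852, 1829 and 1888 in those labelled control.

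The members that were higher and those that were lower differed in base composition, which the choice of members had not used. The median GC content of the transcript was 59.2% among the 28 higher calls and 39.3% among the 41 lower calls, and over all members it ranged from 36% to 71.1%. The difference was larger at the third base of codons, where most changes leave the protein unaltered. A G or C stood there in a median 75.8% of codons of the higher calls and 36.7% of codons of the lower calls, beside 49.9% in the members not called. The contrast can be read in single fingers of these genes. One finger unit of 28 codons is shown for 2 members that were higher (ZNF646 and ZNF747) and 2 that were lower (ZNF146 and ZNF480), from GENCODE 29 coding sequences on build GRCh38, with the codons of the zinc-binding cysteines and histidines in capitals.
ZNF646: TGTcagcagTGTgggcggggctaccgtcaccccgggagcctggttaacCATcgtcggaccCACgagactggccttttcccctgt
ZNF747: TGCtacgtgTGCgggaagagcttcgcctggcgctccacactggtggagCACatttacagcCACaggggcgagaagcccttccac
ZNF146: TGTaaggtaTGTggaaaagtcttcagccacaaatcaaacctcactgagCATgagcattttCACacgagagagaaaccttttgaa
ZNF480: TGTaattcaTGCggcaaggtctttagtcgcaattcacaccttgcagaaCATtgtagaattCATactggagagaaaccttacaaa
These units lie at chr16:31076472-31076555 (plus strand), chr16:30532862-30532945 (minus strand), chr19:36236492-36236575 (plus strand) and chr19:52321947-52322030 (plus strand), each within the coding part of an exon. They share the C2H2 spacing, yet 19 and 26 of the 28 codons end in G or C in ZNF646 and ZNF747, and 12 and 8 of 28 in ZNF146 and ZNF480. The units shown are 64.3%, 61.9%, 40.5% and 39.3% GC in that order.

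Across the 216 members with a transcript in the annotation, the log2 fold change correlated with GC content at a Pearson r of 0.51 and a Spearman rho of 0.56. Across 9321 other genes of at least 3 RPKM the values were 0.42 and 0.43, so the relation was not confined to zinc finger genes. These are correlations across genes within 1 comparison of the same 6 libraries, and genes are not independent replicates. The content of A in the transcript gave -0.58 and -0.59 among members, and -0.47 and -0.46 among the 9321 other genes. The number of finger patterns gave -0.02 and -0.02 (212 members with a coding sequence), exonic length -0.02 and 0.02, and neither ordered the members. Leaving out the members of chromosome 16 gave 0.47 and 0.54 (n = 198).

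**Figure D2:**
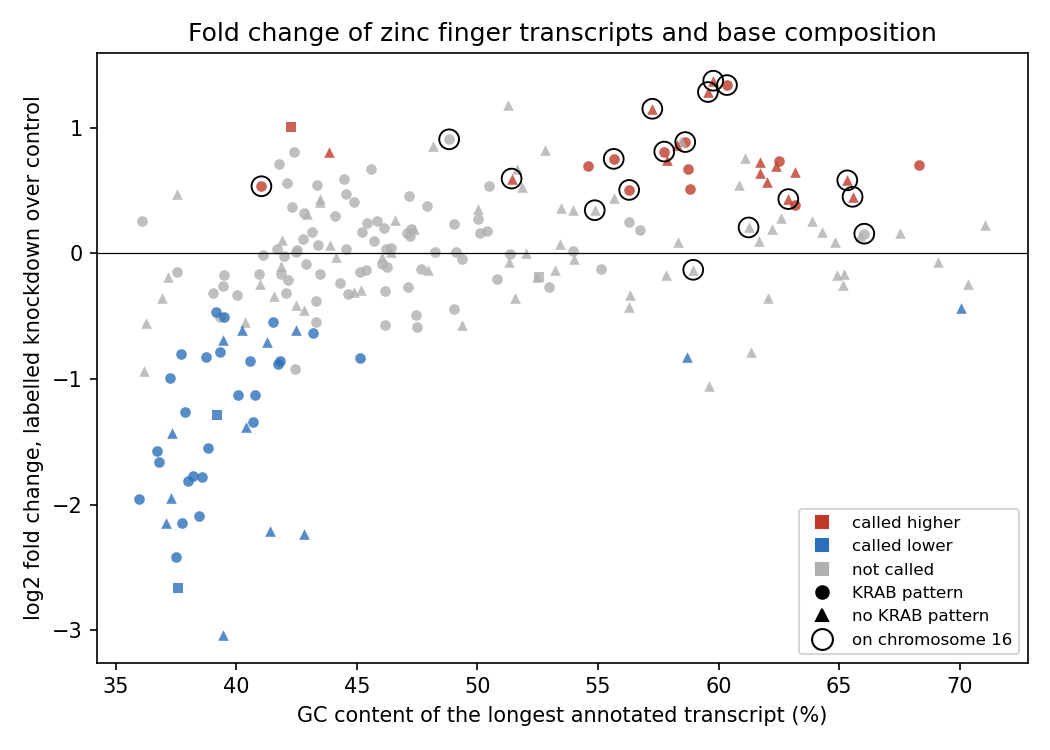
Log2 fold change of each member (libraries labelled knockdown over labelled control) against the GC content of its longest annotated transcript in percent, coloured by call, shaped by the KRAB pattern and ringed where the gene lies on chromosome 16. The lower calls crowd at the left, under 45% GC in 38 of 41, and 25 of the 28 higher calls sit at 50% GC or more.

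By class of GC content, 24 of 35 members under 40% GC were lower and 0 were higher, with a median log2 fold change of -0.99. Among other genes of at least 3 RPKM in that class 45.2% were lower and 1.77% higher, and their median log2 fold change was -0.54. No member under 40% GC was higher at an unadjusted p under 0.05 either, nor with DESeq2. From 40% to 45% GC, 14 of 61 members were lower and 3 higher, beside 24.4% and 4.15% of other genes. From 45% to 55% GC, 1 of 64 members was lower and 2 higher, beside 8.92% and 10.8%. At 55% GC and over, 23 of 56 members were higher and 2 lower, beside 18.5% and 2.54%. The class under 40% GC includes ZNF638, ZNF711, ZNF480, ZNF644 and ZNF420, and the class of 55% and over includes ZNF646, ZNF213, ZNF689 and ZNF768.

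The higher calls at 55% GC and over lay in part on chromosome 16, and their number changed with the libraries that entered. With all libraries the median log2 fold change of the class was 0.27. It was 0.30, 0.31 and 0.24 without the first, the second or the third library labelled knockdown. Shares of all genes called in the fits without a library labelled knockdown are not given here. On chromosome 16, 11 of 14 members of that class were higher, against 12 of 42 elsewhere. The 23 higher calls became 4, 4 and 4 without the first, the second or the third library labelled knockdown, and 9, 36 and 23 without the first, the second or the third labelled control. The 12 higher calls of that class off chromosome 16 became 0, 0 and 0, and 4, 22 and 12, in the same fits. The 24 lower calls under 40% GC became 18, 18 and 18, and 18, 30 and 23. From 40% to 45% GC, the 14 lower and 3 higher calls became 25 lower and 10 higher without the second library labelled control, and 5 to 7 lower and at most 1 higher without any 1 library labelled knockdown. From 45% to 55% GC, where few were called, 5 were lower and 19 higher without the second library labelled control, 1 lower and 11 higher without the third, and DESeq2 called 3 lower and 9 higher.

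**Figure D3:**
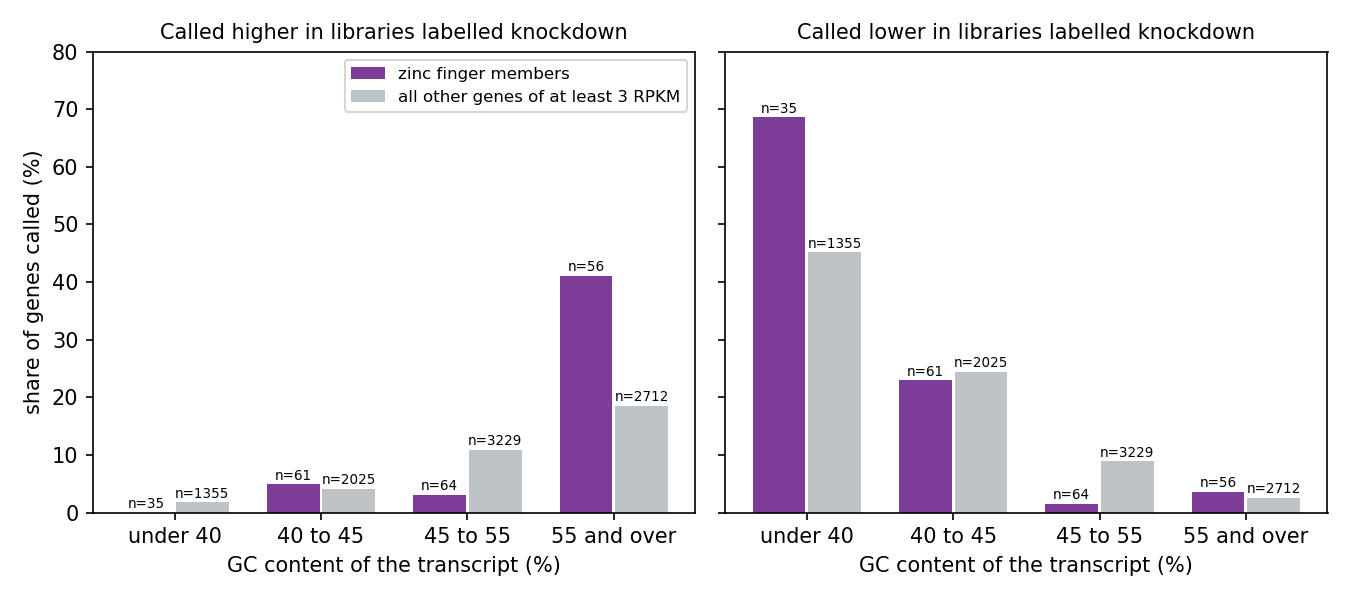
Share of genes called higher (left panel) and called lower (right panel) in the libraries labelled knockdown, in percent, by GC content of the transcript, for the members (purple) and for all other genes of at least 3 RPKM (grey), with the number of genes above each bar. Of the members under 40% GC 68.6% were lower, and of those at 55% and over 41.1% were higher.

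When each library's smooth trend of counts on GC content and exonic length was removed, 21 members were higher and 31 lower. Of the calls made before, 12 of 28 higher and 27 of 41 lower remained. Among genes of at least 3 RPKM this fit called 11.3% higher and 12.4% lower. With the content of A removed as well, 21 members were higher and 23 lower, beside 9.95% and 12.1% of those genes. ZNF638 kept a log2 fold change of -2.71 ± 0.21 (SE) and ZNF146 one of -1.86 ± 0.12 (SE), while ZNF598 went to 0.02 ± 0.10 (SE) and ZNF768 to 0.21 ± 0.09 (SE). Among members under 40% GC, 15 of the 24 lower calls remained and 2 members were then higher. At 55% GC and over, 7 of the 23 higher calls remained, 6 of them on chromosome 16, and 5 members were then lower, among them both that were lower before.

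KRAB members and members without the domain held calls in both directions, and the difference between the classes was not tested. A KRAB A-box pattern was found in the translated coding sequence of 116 members, 96 had a coding sequence without it and 5 had no coding sequence in the annotation. Of the 116, 12 were higher and 26 lower, with a median log2 fold change of -0.03. Of the 96, 15 were higher and 13 lower (median 0.04). In shares, 10.3% of KRAB members were higher and 22.4% lower, and 15.6% and 13.5% of those without the pattern. Among genes of at least 3 RPKM these shares were 10.3% and 15.7%. The KRAB members were poorer in GC, with a median of 44.4% against 53.0%, and had a median of 11 fingers against 7. With the GC and length trends removed, 13 KRAB members were higher and 16 lower, beside 7 and 13 of the members without the pattern. Under 40% GC, 17 of 23 KRAB members and 5 of 10 without the pattern were lower. From 40% to 45% GC, 8 of 40 KRAB members and 6 of 20 without the pattern were lower, and from 45% to 55% GC 1 of 39 and 0 of 24. At 55% GC and over, 10 of 14 KRAB members and 13 of 42 without the pattern were higher. The 38 KRAB calls became 20, 21 and 19 without the first, the second or the third library labelled knockdown and 66 without the second labelled control. The 28 calls among members without the pattern became 8, 7 and 7 without the first, the second or the third library labelled knockdown, 10 without the first labelled control, and 60 (37 higher and 23 lower) without the second. Most members on chromosome 16 were called higher. Of the 18, 13 were higher and 0 lower, 16 had all libraries labelled knockdown above all labelled control, and the median log2 fold change was 0.59. None was lower at an unadjusted p under 0.05 or with DESeq2. Other genes of chromosome 16 with at least 3 RPKM shared this, since 46.9% of 418 were higher and 1.20% lower, and their median log2 fold change was 0.51. Besides ZNF646, ZNF213, ZNF689 and ZNF768, the higher calls there included ZNF598, ZNF263, ZNF319 and ZNF629. ZNF319 had 5.59, 5.25 and 5.54 RPKM in the libraries labelled knockdown, against 2.47, 0.98 and 2.69 RPKM in those labelled control. ZNF629 had 12.40, 12.14 and 12.13 RPKM in the libraries labelled knockdown, against 5.51, 2.22 and 7.45 RPKM in those labelled control. The groups did not overlap in either gene, and the second library labelled control was the lowest in both. The 13 calls became 4, 4 and 4 without the first, the second or the third library labelled knockdown, and 5, 18 and 14 without the first, the second or the third labelled control, while the median stayed between 0.58 and 0.64. With the GC and length trends removed, 8 of 18 were higher and the median was 0.56, against 0.35 for the other genes of the chromosome. ZNF821, ZNF205, ZNF48, ZNF771 and ZNF778 were the 5 not called. Calls among other genes of at least 3 RPKM were uneven on further chromosomes too. Of these genes, 30.8% were higher on chromosome 11, 27.4% on chromosome 9 and 24.6% on chromosome 20. On chromosome 14 46.7% were lower, and on chromosome 3 29.2%. The higher calls ZNF367 and ZNF79 lie on chromosome 9.

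**Figure D4:**
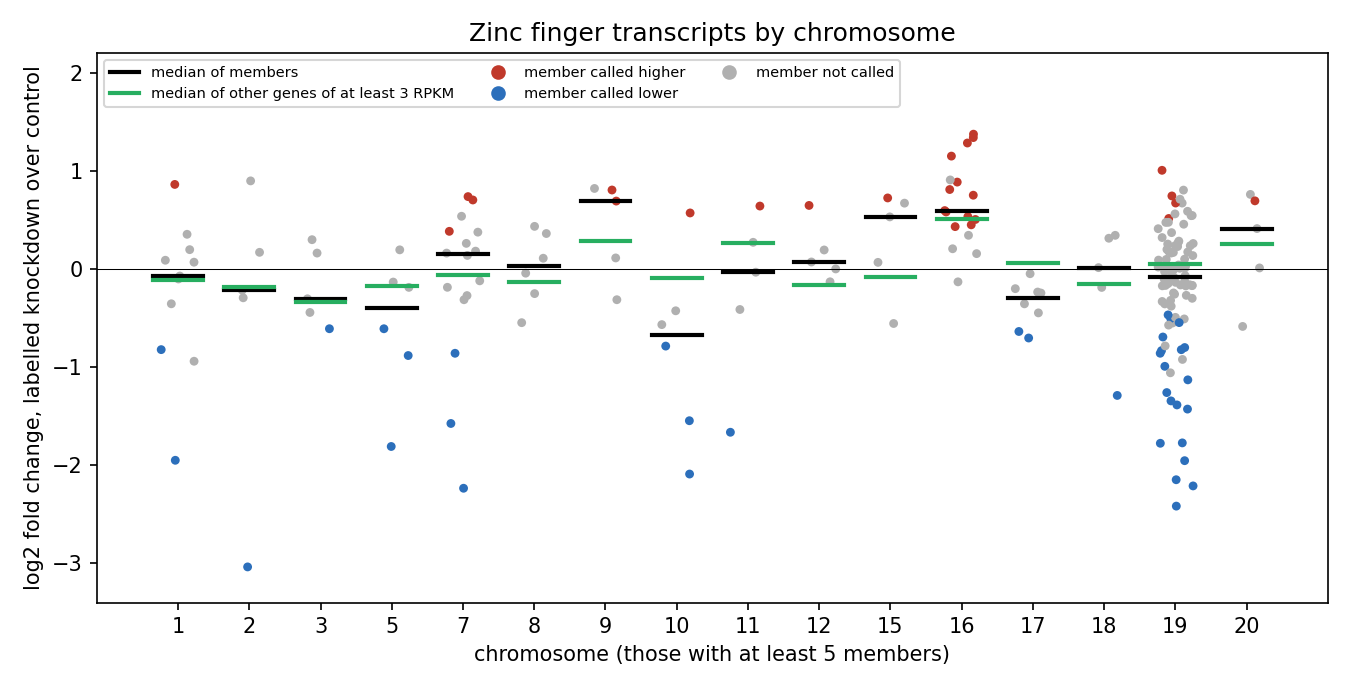
Log2 fold change of each member (libraries labelled knockdown over labelled control) by chromosome, for chromosomes with at least 5 members, with a black line at the members' median and a green line at the median of other genes of at least 3 RPKM. On chromosome 16 both medians lie above 0.5, and the members of chromosome 19 reach down to -2.42.

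Chromosome 19 held 95 of the 217 members, 43.8%, and 72 of these carried the KRAB pattern. There 20 members were lower and 4 higher, with a median log2 fold change of -0.08. Other genes of chromosome 19 with at least 3 RPKM ran the other way, with 8.83% higher and 5.09% lower and a median log2 fold change of 0.05. The 95 members had a median GC content of 44.5%. With the GC and length trends removed, 11 of the 95 were lower and 8 higher. Of the calls made before, 10 of the 20 lower and 1 of the 4 higher remained. Among the 104 members on neither chromosome 16 nor 19, 21 were lower and 11 higher. These are 20.2% and 10.6%, beside 15.7% and 10.3% of genes of at least 3 RPKM. Without the second library labelled control, 36 of the 104 were lower and 28 higher. Without any 1 library labelled knockdown, 11 or 12 of the 104 were lower and at most 1 was higher. The 24 calls on chromosome 19 became 13, 15 and 13 without the first, the second or the third library labelled knockdown, and 48 without the second labelled control.

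Along chromosome 19 the lower calls sat in some clusters and not in others. Members with at most 5 other coding genes between neighbours were joined into runs, in GENCODE 29 order. In the run from ZNF146 to ZNF607, 6 of 13 members were lower (ZNF146, ZNF260, ZNF461, ZNF567, ZNF420 and ZNF569) and 0 higher, at a median log2 fold change of -0.38 and a median GC of 39.4%. ZNF569, a KRAB protein, had 1.07, 1.40 and 1.23 RPKM in the libraries labelled knockdown, against 5.88, 3.15 and 5.80 RPKM in those labelled control (log2 fold change -2.15 ± 0.21 SE). In the run from ZNF283 to ZNF180, 5 of 11 were lower, at a median log2 fold change of -0.55 and a median GC of 40.7%. ZNF404 of that run had 1.75, 2.08 and 1.87 RPKM in the libraries labelled knockdown, against 5.23, 7.79 and 6.13 RPKM in those labelled control (log2 fold change -1.95 ± 0.25 SE). The run from ZNF649 to ZNF331 had 3 of 7 lower, among them ZNF480, and the short run from ZNF302 to ZNF30 had 3 of 4. Among these lower calls ZNF567, ZNF420, ZNF569, ZNF404 and ZNF480 averaged under 3 RPKM under the knockdown label. They became members only through the libraries labelled control, so the choice of members bears on the lower calls per run. Counts per run at 3 RPKM in both groups are not given here. Of other genes of chromosome 19 with at least 3 RPKM, 5.09% were lower. Among other genes of at least 3 RPKM on any chromosome, 45.2% under 40% GC were lower, and 24.4% from 40% to 45% GC.

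The largest run, from ZNF264 to ZNF544 near the end of the long arm, held 23 members and none was called by edgeR with all libraries and no trend removed. Its median was 0.24 and its median GC 45.6%. At an unadjusted p under 0.05, 4 of the 23 were higher and 1 lower, DESeq2 called 3 higher, and without the second library labelled control 7 were higher and 1 lower. Removing the GC and length trends made 4 higher (ZNF548, ZNF772, ZNF550 and ZNF417) and 0 lower. The run from ZNF579 to ZNF581, at a median GC of 64.9%, had 0 of 6 called, with 0 at an unadjusted p under 0.05 and 0 with DESeq2, and 2 higher without the second library labelled control. The lower calls of the run from ZNF146 to ZNF607 numbered 5 to 9 in the fits that left out 1 library, and those of the run from ZNF283 to ZNF180 numbered 1 to 8. With the GC and length trends removed, 5 of the 6 lower calls from ZNF146 to ZNF607 remained, 2 of the 3 from ZNF649 to ZNF331, 1 of the 5 from ZNF283 to ZNF180 (ZNF404) and 1 of the 3 from ZNF302 to ZNF30 (ZNF30). The difference between runs was not tested, and the runs differed in GC content.

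**Figure D5:**
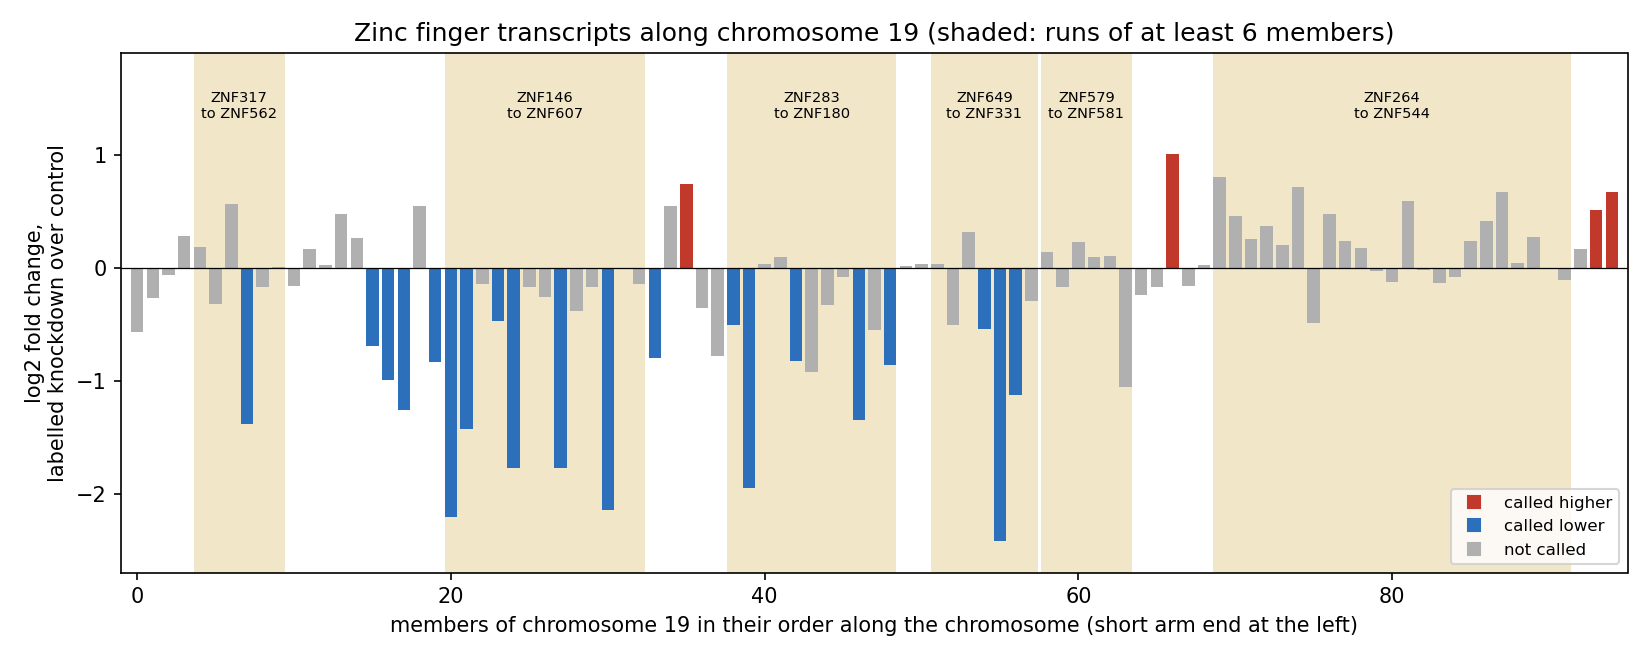
Log2 fold change (libraries labelled knockdown over labelled control) of the 95 members of chromosome 19 in their order along the chromosome, coloured by call, with runs of at least 6 members shaded. Blue bars gather in the runs from ZNF146 to ZNF607 and from ZNF283 to ZNF180, and the run of 23 members at the right has no called member in the main test.

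By role, of 10 members that act on RNA, ribosomes or the spindle, 2 were higher, 1 was lower (ZNF638) and 7 were not called. That is 20% higher and 10% lower, beside 10.3% and 15.7% of genes of at least 3 RPKM. Without the second library labelled control 2 were higher and 4 lower, and without any 1 library labelled knockdown 0 were higher and 1 lower. ZNF598, the ubiquitin ligase that marks collided ribosomes, had 23.32, 22.52 and 26.60 RPKM in the libraries labelled knockdown, against 16.66, 13.72 and 16.71 RPKM in those labelled control (log2 fold change 0.45 ± 0.11 SE, edgeR adjusted p = 0.0299). ZNF385A, an RNA-binding target of p53, averaged 17.2 ± 0.82 RPKM in the libraries labelled knockdown and 9.87 ± 2.6 RPKM in those labelled control (SD, n = 3 each), a log2 fold change of 0.65. Neither call held with the GC and length trends removed. ZNF622 averaged 35.9 RPKM under the knockdown label and 34.6 RPKM under the control label and was not called. The same held for ZNF207 (the spindle protein BuGZ), at 13.4 RPKM under the knockdown label and 15.2 RPKM under the control label, and for ZNF346, which binds double-stranded RNA, at 6.66 RPKM under each label.

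Of 21 members listed as DNA-binding or chromatin-complex proteins without KRAB, 3 were higher and 5 lower, which is 14.3% and 23.8% beside 10.3% and 15.7% of genes of at least 3 RPKM. Without the second library labelled control 9 were higher and 8 lower, and without any 1 library labelled knockdown at most 1 was higher and 3 were lower. After removal of the GC and length trends 1 was higher (ZNF367) and 6 were lower, the same 5 and ZNF703. The lower ones were ZNF146, ZNF711 and ZNF644, already described, with ZNF131, a BTB-domain protein, and ZNF219. ZNF131 had 4.20, 4.25 and 4.25 RPKM in the libraries labelled knockdown, against 6.53, 4.89 and 5.81 RPKM in those labelled control (log2 fold change -0.61 ± 0.12 SE). ZNF219 was called on counts at -0.44 ± 0.12 (SE), while its RPKM overlapped, at 7.64, 8.01 and 8.43 under the knockdown label against 10.77, 8.41 and 9.76 under the control label. It lies on chromosome 14, where 46.7% of 315 other genes of at least 3 RPKM were lower, at a median log2 fold change of -0.55. The higher ones were ZNF687, a partner of ZMYND8 and ZNF592, ZNF503 and ZNF367. ZNF687 averaged 12.9 ± 0.40 RPKM under the knockdown label and 6.46 ± 2.7 RPKM under the control label, and ZNF503 23.0 ± 1.1 RPKM under the knockdown label and 13.9 ± 3.5 RPKM under the control label (SD, n = 3 each). ZNF592, of the same complex as ZNF687, averaged 12.4 ± 0.68 RPKM under the knockdown label and 7.75 ± 2.7 RPKM under the control label and did not pass (edgeR adjusted p = 0.0824). ZNF143, which binds promoters and chromatin loop anchors, averaged 4.04 ± 0.081 RPKM under the knockdown label and 4.75 ± 0.35 RPKM under the control label and did not pass (edgeR adjusted p = 0.0561).

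Of 7 members listed as KRAB proteins with a described target, 2 were higher and 0 lower, and both calls were lost when any 1 library labelled knockdown was left out. These shares are 28.6% and 0%, beside 10.3% and 15.7% of genes of at least 3 RPKM, and the list is short. Without the second library labelled control 3 were higher and 0 lower. ZNF263 had 6.72, 6.79 and 6.49 RPKM in the libraries labelled knockdown, against 4.45, 3.91 and 4.09 RPKM in those labelled control (log2 fold change 0.50 ± 0.12 SE). ZNF282 had 24.74, 25.69 and 25.95 RPKM in the libraries labelled knockdown, against 17.46, 16.10 and 18.22 RPKM in those labelled control (log2 fold change 0.38 ± 0.11 SE). With the GC and length trends removed, ZNF263 was at a log2 fold change of 0.11 and ZNF282 at 0.06, and neither was then called. ZNF274, which binds the finger-coding exons of zinc finger genes themselves and recruits SETDB1 there, had 7.10, 6.29 and 7.19 RPKM in the libraries labelled knockdown, against 5.66, 5.91 and 6.68 RPKM in those labelled control, and the groups overlapped. ZNF445, a regulator of imprinted genes, averaged 4.11 ± 0.44 RPKM under the knockdown label and 3.31 ± 1.0 RPKM under the control label and was not called. No member of this list was lower at an unadjusted p under 0.05.

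The partners through which KRAB proteins act were tested as a list of 32 genes, of which 31 entered the test and EHMT2 was listed at 0 in every library. TRIM28 had 229.44, 239.94 and 256.90 RPKM in the libraries labelled knockdown, against 201.14, 139.53 and 205.60 RPKM in those labelled control. The groups did not overlap on RPKM, but TRIM28 was not called (log2 fold change 0.25 ± 0.16 SE, edgeR adjusted p = 0.273). SETDB1 averaged 11.4 ± 0.16 RPKM under the knockdown label and 10.7 ± 0.48 RPKM under the control label and was not called. Of the 31, 10 were lower and 3 higher, which is 32.3% and 9.68% beside 14.7% and 9.29% of all genes tested, with a median log2 fold change of -0.09. CBX3, the HP1 protein gamma, had 25.70, 29.24 and 26.45 RPKM in the libraries labelled knockdown, against 80.16, 90.47 and 72.27 RPKM in those labelled control (log2 fold change -1.78 ± 0.20 SE, edgeR adjusted p = 0.00188). The deacetylase HDAC2 averaged 18.2 ± 0.56 RPKM under the knockdown label and 35.4 ± 2.1 RPKM under the control label. The HUSH subunit FAM208A averaged 5.97 ± 0.20 RPKM under the knockdown label and 10.8 ± 3.4 RPKM under the control label, and was lower. SUV39H2, MORC3, SMARCAD1, PPHLN1, HELLS, MTA1 and ATRX were the other lower calls, ATRX at only 0.01 to 0.31 RPKM. The higher calls were EHMT1, MTA2 and DNMT1, the last at 45.9 ± 1.6 RPKM under the knockdown label and 26.5 ± 9.0 RPKM under the control label. With the GC and length trends removed 7 of the 30 genes of the list with a value were lower, CBX3 among them, and 0 higher. Of all 17302 genes with a value in that fit, 1988 were lower and 1739 higher. FAM208A (edgeR adjusted p = 0.0525), HDAC2 (0.0872) and HELLS (0.162) were then not called. The list's 13 calls became 5, 6 and 5 without the first, the second or the third library labelled knockdown, and 8, 16 and 14 without the first, the second or the third labelled control.

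The promoters of the higher and the lower calls were close in base composition, unlike their coding sequences. Of the 217 symbols, 185 matched RefSeq promoter windows (build GRCh38.p14), and the 250 bases before the start were searched on both strands in 237 windows. The median GC content of the windows was 64.2% for the higher calls and 63.6% for the lower calls. It was 62.8% for all members' windows and 58.0% for the windows of all genes. The ETS-type motif CCGGAAG stood in 27% of the members' windows and in 8.52% of all 35116 windows of the same length. Its share was 26.7% among the higher calls and 33.3% among the lower calls. The GC box GGGCGG stood in 57.8% of members' windows against 42.6% of all windows, CCAAT in 38% against 32%, and ACTACAA, the core of the motif that ZNF143 binds, in 6.33% against 2.47%. These comparisons were not matched for GC content or for expression, and genes with several windows count more than once. The windows of ZNF646, the strongest higher call, and ZNF638, the strongest lower call, both hold the ETS motif and the GC box, shown in capitals.
ZNF646: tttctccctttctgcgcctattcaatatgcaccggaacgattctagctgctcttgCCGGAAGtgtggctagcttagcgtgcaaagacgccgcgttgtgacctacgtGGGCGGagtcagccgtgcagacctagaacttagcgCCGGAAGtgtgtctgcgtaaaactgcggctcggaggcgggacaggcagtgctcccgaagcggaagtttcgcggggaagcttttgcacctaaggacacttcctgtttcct
ZNF638: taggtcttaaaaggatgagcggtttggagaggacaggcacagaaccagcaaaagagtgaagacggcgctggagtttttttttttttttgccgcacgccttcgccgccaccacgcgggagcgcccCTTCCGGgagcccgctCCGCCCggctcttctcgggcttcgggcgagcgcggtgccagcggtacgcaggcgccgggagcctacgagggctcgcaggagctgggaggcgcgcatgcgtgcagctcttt
They lie at chr16:31074172-31074421 and chr2:71331532-71331781, both on the plus strand. A match describes these letters only.

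Near-identical copies could touch the counts of a few members. Of the 216 members with a transcript, 25 shared over 10% of their 50-base windows with another annotated gene and 93 shared none. Among the 25, 4 were called higher (ZNF747, ZNF764, ZNF324 and ZNF446) and 6 lower (ZNF302, ZNF181, ZNF277, ZNF354A, ZNF761 and ZNF286A), and these 10 are uncertain to that extent. ZNF286A shared 68.9% of its windows, mostly with ZNF286B, and ZNF446 shared 35.4%, with ZNF324. None of the 10 strongest lower calls was over 7.0%.

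The libraries labelled knockdown were more alike than those labelled control. The coefficient of variation of a member's RPKM had a median of 4.91% under the knockdown label and 19.3% under the control label, and it was larger in the control label for 201 of 217 members. Other genes of at least 3 RPKM had a median of 4.07% under the knockdown label and 21.8% under the control label. The second library labelled control exceeded both others of its label by at least 1.5-fold for 17 members and fell short of both by as much for 59. ZNF581 had 21.76, 22.08 and 22.27 RPKM in the libraries labelled knockdown, against 16.24, 79.00 and 16.55 RPKM in those labelled control, so 1 library lay far above the other 5. Its log2 fold change was -1.06 and not called, while without that library it was 0.36 and called higher (edgeR adjusted p = 0.00552). ZNF32 had 20.21, 20.13 and 20.65 RPKM in the libraries labelled knockdown, against 18.60, 42.36 and 14.73 RPKM in those labelled control, and its log2 fold change was -0.57, and 0.22 without the second library labelled control, neither called. Of the 17, ZNF226, ZNF277 and ZNF33B were called lower, and in ZNF277 the libraries labelled knockdown had 2.56, 2.61 and 2.24 RPKM, against 6.0, 17.82 and 5.08 RPKM in those labelled control, below every one of them. Without the second library labelled control these 3 were still lower, at log2 fold changes of -0.88, -1.24 and -1.18, against -1.34, -2.24 and -2.09 with it.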

How the data were processed

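Total RNA of 6 HEK293 libraries was measured by sequencing after ribosomal RNA depletion. Per the labels' protocols, an RNA bisulfite kit was used before stranded library preparation. Whether treated libraries gave the deposited table, the aligner, the annotation and the strand setting were not given in the sources used here. The deposited table holds read counts per gene, not normalized by the authors, exonic lengths given by the authors, and RPKM values that the authors scaled by exonic length and library total (equal to the counts so scaled, within 0.006, for 100% of values). Build hg19 and the tools edgeR 3.4.6, DESeq 1.18.0, DESeq2 1.6.3, StringTie 1, HTSeq 0.6.1 and bcl2fastq 2.17.1.14 are named, with no role, per the submitters' processing notes. Precision is limited by 3 libraries per label and by the library totals given above.

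The main test ran on the counts in edgeR 4.0.16 under R 4.3.3 (TMM scaling, low-count filter, robust quasi-likelihood test, Benjamini-Hochberg adjustment over 17805 genes, threshold 0.05). The test was checked on simulated data with the same spread in both groups and no library that stood apart. That check does not cover the wider spread of the control label. GC content came from the longest GENCODE 29 transcript (build GRCh38), matched by gene ID for 97.2% of genes. GC and length trends were fitted per library with mgcv 1.9.3 and used as offsets. DESeq2 1.42.0, limma 3.58.1 and the other alternatives are given in the closing section. Lacking a protein table, KRAB patterns were sought in translated GENCODE coding sequences, where at least 12 of 41 consensus positions had to match. That limit was set after the scores were seen (ZNF200 lies on it). Each finger was matched by the spacing of its cysteines and histidines.

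Named members were the 10 with the smallest p in each direction among groups that did not overlap, the 5 of highest mean, members of 3 role lists, those nearest the 3 RPKM threshold, TRDMT1 and called corepressor genes. Other members of runs and of chromosome 16, ZNF581, ZNF32, ZNF226, ZNF277, ZNF33B and genes sharing windows were named after their values were seen. The members and lists were chosen with earlier results of these data known.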

Additional observations from a re-analysis of the deposited data

How the results depend on the processing

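With 3 libraries per label and 1 that stands apart, counts of calls are the least stable values here, and the p-values cover the spread between these libraries only. The 69 called members became 39 with the replicate block and the GC and length trends removed, 44 with GC, A and length trends removed (chosen after seeing the data) and 28 to 130 with 1 library left out. They became 132 of 368 genes at a mean of at least 1 RPKM, 27 of 94 at 6 RPKM and 45 of 174 at 3 RPKM in both groups. The 28 higher calls became 14 with the block and both trends removed, 4 to 65 with 1 library left out, 44 at 1 RPKM, 14 at 6 RPKM and 15 without the members of chromosome 16 (chosen after seeing the data). The 41 lower calls became 27 with limma-trend on log2(RPKM + 1) and 27 on log2(RPKM + 0.1), 25 with the block and both trends removed, 23 with GC, A and length trends removed, 24 to 65 with 1 library left out, 88 at 1 RPKM, 13 at 6 RPKM and 24 at 3 RPKM in both groups. The 38 KRAB calls became 19, 22 and 19 to 66 under the block with both trends removed, the GC, A and length trends and leaving out 1 library. The 24 calls of chromosome 19 became 15 with GC, A and length trends removed and 13 to 48 with 1 library left out. The 13 corepressor calls became 6 and 6 with limma-trend, 7 with GC and length trends removed, 4 with the block added, 7 with GC, A and length trends removed and 5 to 16 with 1 library left out. The cause of these shifts was not tested, beyond the fewer libraries or genes some settings hold.

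The members' median log2 fold change of -0.02 was 0.15 on log2(RPKM + 1) and 0.19 on log2(RPKM + 0.1), scales on which the median of all genes tested was 0.07 and 0.14, against -0.04 in the main test. On those scales ZNF664 turned from -0.13 to 0.051 and 0.053, uncalled on both. TRDMT1 passed the threshold with DESeq2 (0.65), with GC and length trends removed (1.11), with the replicate block added to these (1.17), with GC, A and length trends removed (1.04) and without the second library labelled control, always in the same direction, and it ran from 0.45 to 0.79 with 1 library left out. The other values of the 44 genes named by the rule kept their direction in the settings run, and 168 of them lost their call. ZNF581 and ZNF32, named after their values were seen, turned to 0.36 and 0.22 without the second library labelled control. Same-numbered libraries deviated little together, with correlations of -0.04, 0.06 and 0.001. With 3 libraries per label, 1 of which stands apart, these correlations cannot show whether the numbers pair the samples. The replicate block alone left 55 members called, 22 higher and 33 lower.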
